A study of Homo sapiens with 21 samples.

Results

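The ATF4 amino acid response and the chaperone branch of the unfolded protein response were followed as 39 named genes in RNA-seq of 21 libraries from 5 human lung cell lines. The members were found by gene name in the 56632 genes of the count tables, and each of the 39 matched 1 protein-coding entry. Of these, 27 belong to the amino acid response and 12 to the endoplasmic reticulum (ER) chaperones and folding factors. PC9 and HCC827, lung adenocarcinoma lines, carry mutant EGFR. Each was profiled as parental, gefitinib-tolerant and osimertinib-tolerant cells. The tolerant cells were made with 40 nM gefitinib or 20 nM osimertinib, with 14 days of drug per the labels. The names of the parental libraries begin with VEH, read here as vehicle. Untreated below means without gefitinib or osimertinib. AALE, an immortalized tracheobronchial epithelial line, and PC9 and HCC827 were also profiled after lentiviral overexpression of a scrambled control, of miR-147b or of miR-21, with puromycin selection of all of these cells. H1975 and PC9ER, EGFR-mutant lines that per the labels also have the gatekeeper mutation of resistance, were profiled after knockdown with a control, of miR-147b or of miR-21. Each condition has 1 library per line, so the lines are the replicates (n = 2 for tolerance and knockdown, n = 3 for overexpression). The gene set itself has no comparison named in the labels, so the members are described across the study's own comparisons, each line against its own control.

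ATF4 is a transcription factor whose mRNA is translated when kinases that sense amino acid shortage, ER stress, haem shortage or viral RNA phosphorylate the initiation factor eIF2. It raises genes of amino acid synthesis, amino acid import and tRNA charging, and also DDIT3 (CHOP), CHAC1 and TRIB3, which act later in the response. The ER chaperone genes answer mainly to ATF6 and XBP1, the transcription factors of the other arms of the unfolded protein response, so the 2 groups share an inducer but not all of their regulators. Levels below are CPM, read counts scaled to the size of each library by TMM, and differences are log2 values with the standard error (SE) of the fit.

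Promoter windows were read to show where the letters of the known response elements lie, so that members with the same element can be followed through the results below. RefSeq windows on GRCh38.p14, from 250 bases before to 50 bases after a transcript start, were matched for 34 members (52 windows). No window was matched for PSPH, SHMT2, ALDH1L2, NUPR1 and PDIA3. Elements outside a window are not seen. The members were chosen as genes of these responses, so the motif shares below are not a test. On both strands, the CARE motif TGATGNAA, which ATF4 pairs with C/EBP proteins can bind, was in the windows of 10 of 23 amino acid response genes and of 1 of 11 ER genes, HERPUD1. By window this is 25.6% and 7.69%, against 3.62% of all 35116 windows. The ER stress element, CCAAT and CCACG with 9 bases between them, was in the windows of HSPA5, HSP90B1, CALR, XBP1 and CRELD2, 5 of 13 ER windows (38.5%) and 0 of 39 amino acid response windows, against 0.0769% of all. The short form, ATTGG and CCACG with 1 base between them, was in those of SDF2L1 and HERPUD1, against 0.0541% of all, and no match to one motif overlapped a match to another in these windows. The 5 windows printed here are 2 amino acid response genes with the CARE motif, HERPUD1 with both kinds of motif, and 2 chaperone genes with the ER stress element. Capitals mark the matches and base 251 is the transcript start. ASNS lies at chr7:97872359-97872658 on the minus strand, CHAC1 at chr15:40953221-40953520 on the plus strand, HERPUD1 at chr16:56931892-56932191 on the plus strand, HSPA5 at chr9:125241294-125241593 on the minus strand and CRELD2 at chr22:49918384-49918683 on the plus strand.
ASNS: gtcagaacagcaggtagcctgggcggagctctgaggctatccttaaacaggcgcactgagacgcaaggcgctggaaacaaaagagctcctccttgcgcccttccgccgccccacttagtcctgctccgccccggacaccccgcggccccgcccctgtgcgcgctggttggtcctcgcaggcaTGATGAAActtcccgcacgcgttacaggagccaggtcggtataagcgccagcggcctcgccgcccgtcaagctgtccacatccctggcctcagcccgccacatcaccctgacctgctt
CHAC1: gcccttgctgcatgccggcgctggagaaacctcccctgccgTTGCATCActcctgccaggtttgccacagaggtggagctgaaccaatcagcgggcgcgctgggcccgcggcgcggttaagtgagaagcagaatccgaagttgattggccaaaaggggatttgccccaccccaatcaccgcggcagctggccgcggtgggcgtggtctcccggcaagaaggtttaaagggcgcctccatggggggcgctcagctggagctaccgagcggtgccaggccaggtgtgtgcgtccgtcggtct
HERPUD1: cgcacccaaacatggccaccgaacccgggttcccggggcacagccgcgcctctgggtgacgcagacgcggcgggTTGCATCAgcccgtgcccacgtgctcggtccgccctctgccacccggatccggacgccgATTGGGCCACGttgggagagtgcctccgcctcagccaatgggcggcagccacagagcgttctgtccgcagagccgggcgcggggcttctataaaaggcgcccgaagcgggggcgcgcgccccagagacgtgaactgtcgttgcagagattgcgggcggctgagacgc
HSPA5: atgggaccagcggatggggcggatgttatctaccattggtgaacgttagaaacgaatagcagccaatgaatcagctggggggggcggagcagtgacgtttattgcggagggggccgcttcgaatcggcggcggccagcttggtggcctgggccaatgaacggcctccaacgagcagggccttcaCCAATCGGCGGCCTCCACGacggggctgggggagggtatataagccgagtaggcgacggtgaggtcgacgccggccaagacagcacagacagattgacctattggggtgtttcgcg
CRELD2: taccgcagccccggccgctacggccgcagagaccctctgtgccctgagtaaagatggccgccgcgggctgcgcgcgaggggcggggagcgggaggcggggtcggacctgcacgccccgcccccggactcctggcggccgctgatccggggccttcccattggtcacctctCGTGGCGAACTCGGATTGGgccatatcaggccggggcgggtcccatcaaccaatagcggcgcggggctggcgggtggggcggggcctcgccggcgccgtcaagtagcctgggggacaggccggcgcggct

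Expected counts summed to between 15516460 and 29694050 per library, and all 39 members passed the filter on low counts in each comparison. The epithelial markers were all at 1 CPM or more in every library (6 of 6), and the 4 basal airway markers summed to 4057 to 9190 CPM in AALE and 1.9 to 969 CPM elsewhere. Leukocyte markers summed to at most 190 CPM and fibroblast markers to at most 124 CPM in any library. One library stood apart: in PC9ER with miR-21 knockdown, genes in the lowest quintile of transcript GC content had a median log2 ratio to the control of 1.53 and those in the highest quintile -0.69. The same span from lowest to highest quintile was 0.92 and 0.95 in the gefitinib-tolerant and osimertinib-tolerant HCC827 libraries and -0.17 in both tolerant PC9 libraries, and it was -0.98 for scrambled against parental PC9. The labels do not say whether cultures of 1 line were separate, so the p-values cover the spread between these libraries alone, part of which may be technical. In bulk RNA, fewer cells with an active response and less response RNA per cell cannot be told apart.

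The members were highest in AALE. In all 3 AALE libraries 24 of the 39 members lay above every one of the other 18 libraries, 18 of the amino acid response and 6 of the ER chaperones, against 10.1% of 21233 genes, and 0 members lay below all others, against 6.43%. Among the 7 control libraries AALE was highest for 27 of 39 members, against 20.1% of genes. With 1 library per condition and line these are values with no test. AALE cells were kept in another medium (SAGM) than the cancer lines (DMEM with serum), per the labels, so line and medium cannot be told apart.

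The widest gaps over the next control were those of ALDH1L2, CHAC1, TRIB3, ASNS, DDIT3 and NUPR1. ALDH1L2, a mitochondrial folate dehydrogenase, was at 151 to 225 CPM in AALE and at 1.05 to 7.74 CPM (median 2.47) in the other 18 libraries. The control library of AALE was 32-fold above the next control. CHAC1, which degrades glutathione, was at 74.8 to 83.3 CPM in AALE and at 0.583 to 11.8 elsewhere, and TRIB3, a pseudokinase that restrains ATF4 and CHOP signalling, at 852 to 897 against 18.2 to 123. ASNS, asparagine synthetase, was at 420 to 606 CPM in AALE and at 17.1 to 182 elsewhere (median 69.8). NUPR1, a small stress-induced chromatin protein, was at 107 to 112 CPM against 0.194 to 28.4, and DDIT3, the transcription factor CHOP, at 43.1 to 53.5 against 3.23 to 27.2. None of these ranges overlapped. The difference was smaller for ATF4 mRNA itself, at 404 to 428 CPM in AALE and 138 to 326 elsewhere.

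Import and serine synthesis genes split in AALE. The light and heavy chains of the leucine transporter, SLC7A5 and SLC3A2, were at 3165 to 3468 and 1032 to 1213 CPM, above all other libraries (678 to 1563 and 305 to 712). PSAT1, the middle enzyme of serine synthesis, was at 528 to 679 CPM against 49.7 to 279. The first and last enzymes of the same route, PHGDH and PSPH, were not highest in AALE, at 298 to 360 CPM within a range of 20.5 to 645 elsewhere, and at 67.2 to 71.4 within 52.9 to 234. Of the ER genes, HSPA5 (the chaperone BiP) was at 1811 to 2215 CPM against 581 to 1297, XBP1 at 283 to 301 against 37.2 to 128, and DNAJB9, a BiP co-chaperone, at 40.8 to 42.4 against 5.36 to 18.9. CALR (calreticulin) was at 663 to 856 CPM in AALE and reached 2465 CPM in control PC9ER, and PDIA4, a disulfide isomerase, was lowest in AALE among the controls at 216 CPM.

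**Figure D1:**
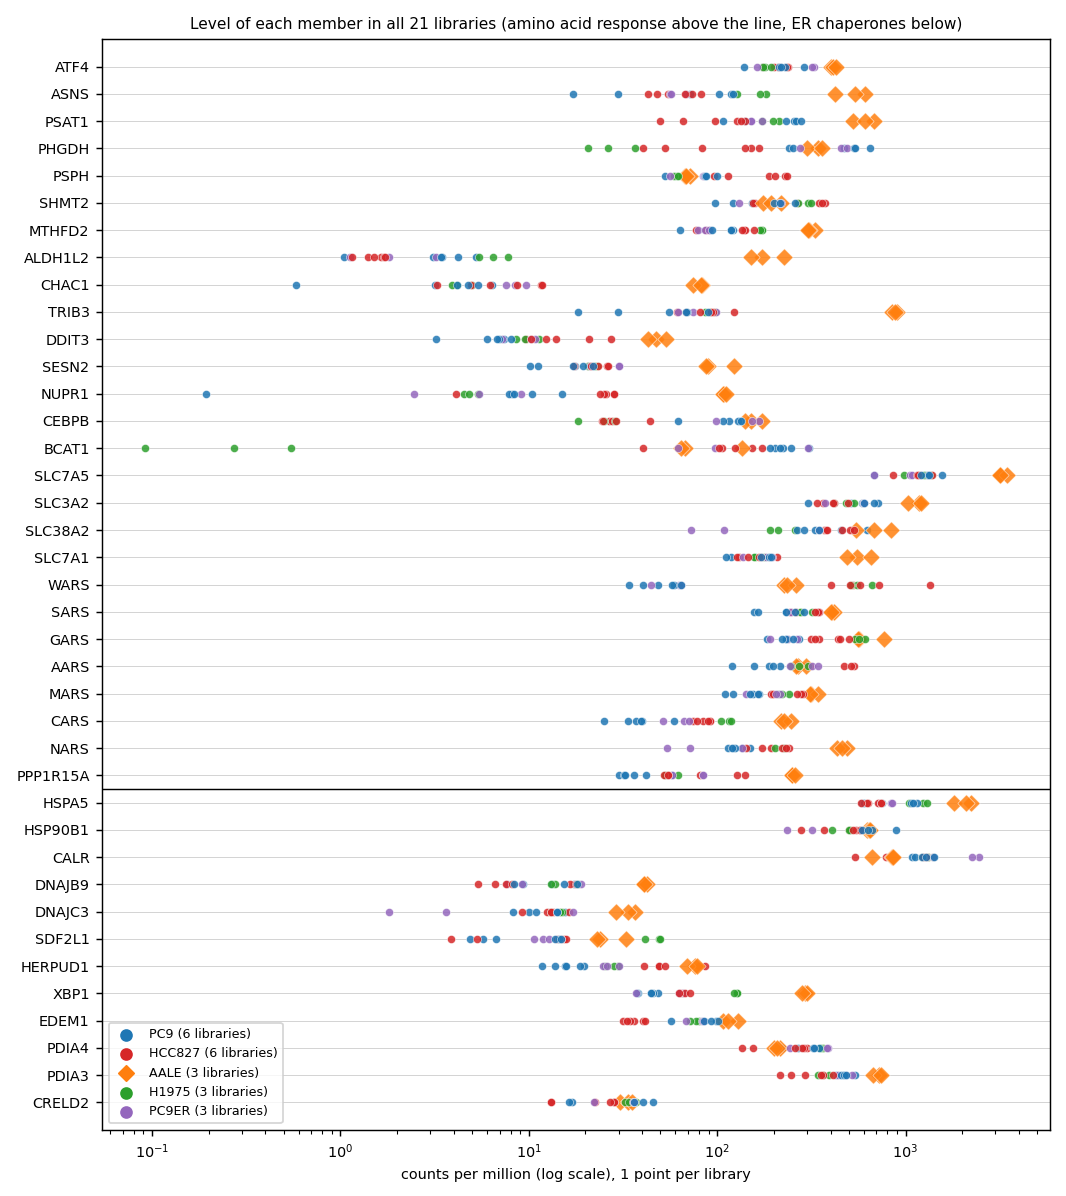
Level of each of the 39 members in CPM (log axis), 1 point per library and 1 colour per line, with AALE as diamonds. The 3 AALE points lie to the right of all other points for 24 members, widest for ALDH1L2, CHAC1 and TRIB3, and the parental PC9 library gives the lowest NUPR1 and CHAC1 values.

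The cancer lines also differed from each other, and controls of 1 line differed between experiments. WARS, the tryptophanyl-tRNA synthetase, was at 34.2 to 64.6 CPM in the 9 libraries of PC9 and PC9ER and at 402 to 1347 CPM in the 9 of HCC827 and H1975. BCAT1, which starts branched-chain amino acid breakdown, was at 0.0923, 0.271 and 0.546 CPM in H1975 and at 40.6 CPM or more in each library of the other lines. PHGDH was at 20.5 to 36.7 CPM in H1975 and at 645 CPM in PC9 with the scrambled control. Parental PC9 was the lowest of the 7 controls for 18 of 39 members, 15 of them of the amino acid response, against 16.1% of genes. PC9 with the scrambled control stood above parental PC9 for 21 of 27 amino acid response members (median log2 ratio 0.67), and 9 of the 27 were at least 2-fold higher, against 10.5% of genes. ASNS was at 17.1 CPM in parental and 118 CPM in scrambled PC9. In HCC827 the same median was 0.32. The scrambled PC9 library also had the GC span of -0.98 given above, with median ratios to parental PC9 of -0.54 in the lowest and 0.43 in the highest quintile, and its part in these values was not tested. These untreated cells came from different experiments, and vehicle, transduction, selection and experiment cannot be told apart. The values bear on each comparison with parental cells below.

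Drug-tolerant cells were compared with parental cells to ask what sets apart cells that persist under an EGFR inhibitor. No member passed the test. DDIT3, NUPR1, CHAC1, PPP1R15A, HERPUD1 and DNAJB9 were higher and SLC7A1, MTHFD2, CRELD2, SDF2L1 and PDIA4 lower in all 4 tolerant libraries than in the parental cells of the same line. In PC9, DDIT3 was at 3.23 CPM untreated, 5.97 under gefitinib and 7.37 under osimertinib. In HCC827 the values were 9.64, 21 and 27.2 CPM. All 4 tolerant libraries lay above their own parental library. The mean log2 difference over both drugs was 1.14 ± 0.25 (SE, n = 2 lines), with an adjusted p of 0.12 by edgeR's quasi-likelihood test. NUPR1, in the same order of condition, gave 0.194, 15 and 10.4 CPM in PC9 and 4.11, 25.8 and 25 CPM in HCC827, a mean difference of 3.68 ± 0.84 (adjusted p = 0.121). The parental PC9 value rests on 5 expected counts. With that library left out, the NUPR1 difference was 2.58, and without parental HCC827 it was 5.97. In the fit without parental HCC827, NUPR1 was the only member called, against 0.0894% of genes. Without parental PC9 a far larger share of genes passed, given below, so a call there does not set NUPR1 apart. Each of these fits has 1 parental library, so neither covers the spread between parental cultures.

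HERPUD1, an ER membrane protein of the degradation pathway, had 11.7 CPM in untreated, 19.7 in gefitinib-tolerant and 18.7 in osimertinib-tolerant cells for PC9, and 40.7, 86 and 80.1 CPM for HCC827, a mean difference of 0.84 ± 0.21 (adjusted p = 0.126). Its window, shown above, was the only 1 of the 52 with both a CARE motif and an ER stress element. DNAJB9 had 9.37, 13.3 and 17.3 CPM in PC9 beside 5.36, 16.5 and 17.8 CPM in HCC827 (1.13 ± 0.32, adjusted p = 0.142). PPP1R15A (GADD34), which restores translation by dephosphorylating eIF2, had 30.3, 41.7 and 57.4 CPM in PC9 beside 80.7, 141 and 127 CPM in HCC827 (0.69 ± 0.22, adjusted p = 0.166). CHAC1 had 0.583, 6.38 and 3.17 CPM in PC9 beside 6.22, 11.6 and 11.8 CPM in HCC827 (1.71 ± 0.61, adjusted p = 0.19). For all of these genes both lines had the same sign. The parental PC9 value of CHAC1 rests on 15 expected counts. Scrambled PC9, with no drug, had 5.37 CPM of CHAC1, within its tolerant values, and scrambled HCC827 had 4.95 CPM.

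Lower values came from an arginine and lysine importer and from folding factors. SLC7A1, that importer, had 190, 118 and 111 CPM in PC9 beside 209, 131 and 128 CPM in HCC827, a mean difference of -0.74 ± 0.18 (SE, n = 2 lines; adjusted p = 0.125). CRELD2, an ER isomerase, had 28.2, 16.9 and 16.4 CPM in PC9 beside 22.6, 13.2 and 13.1 CPM in HCC827 (-0.80 ± 0.20, adjusted p = 0.129). SDF2L1, a BiP partner, had 6.73, 5.74 and 4.88 CPM in PC9 beside 15.4, 5.32 and 3.88 CPM in HCC827 (-1.14 ± 0.42, adjusted p = 0.193). MTHFD2, a mitochondrial folate enzyme, had -0.72 ± 0.23 and PDIA4 -0.72 ± 0.25, with adjusted p = 0.159 and 0.183. HSPA5 had 752, 584 and 604 CPM in PC9 beside 631, 627 and 581 CPM in HCC827, so that in HCC827 the gefitinib value nearly equalled the parental value.

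**Figure D2:**
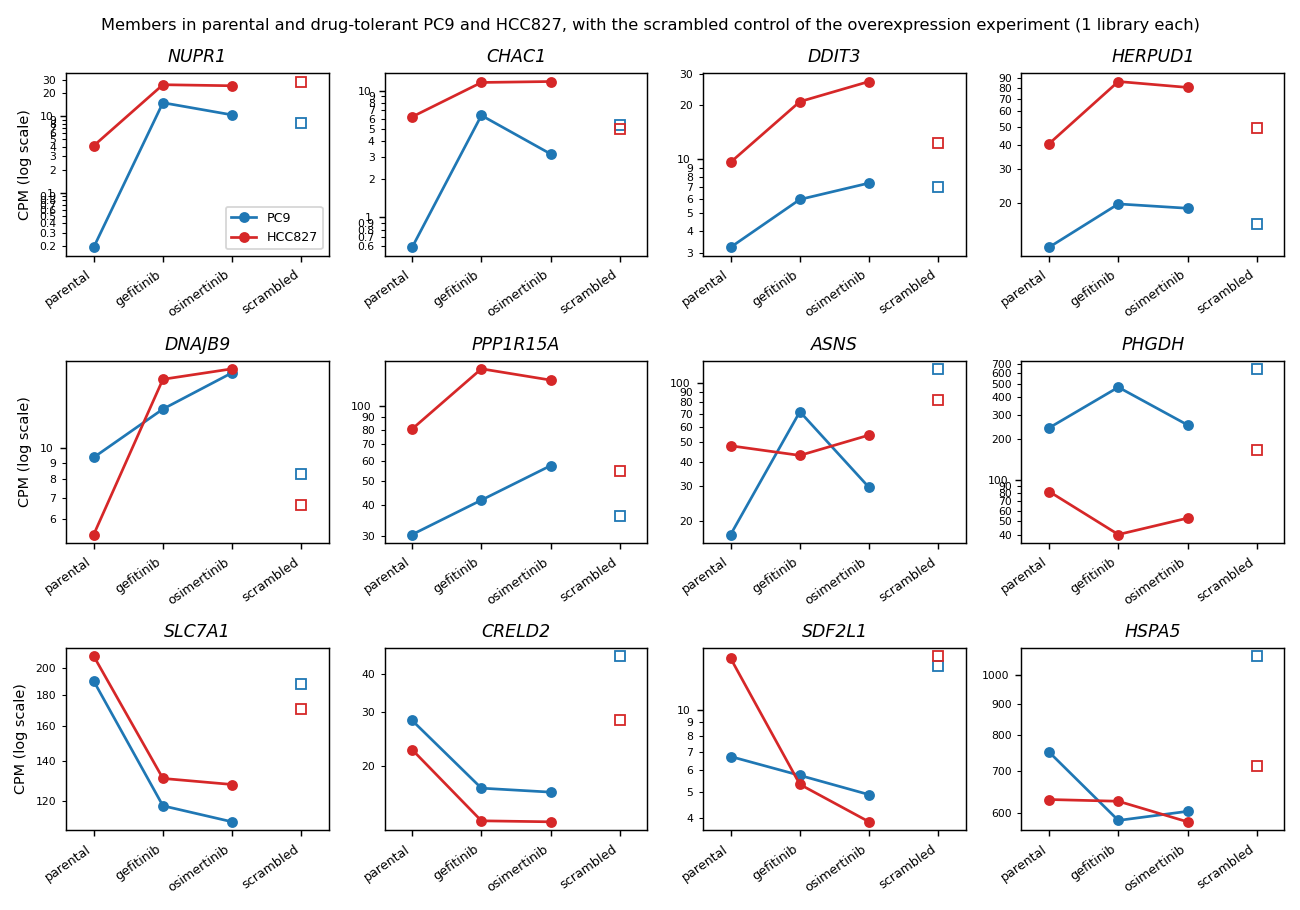
CPM (log axis) of 12 members in parental, gefitinib-tolerant and osimertinib-tolerant PC9 (blue) and HCC827 (red), 1 library per point, with the scrambled control of the overexpression experiment as open squares. DDIT3, HERPUD1 and DNAJB9 are higher and SLC7A1 and CRELD2 lower in all 4 tolerant libraries, and the scrambled NUPR1 values (8.18 and 28.4 CPM) lie near the tolerant ones.

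Over the members, 0 of 39 passed at an adjusted p of 0.05 for gefitinib, for osimertinib and for the mean of both, against 0.0% of 19837 genes in each. At an unadjusted p under 0.05 there were 8 for gefitinib (17.5% of all genes), 10 for osimertinib (19.8%) and 11 for the mean (23.5%). DESeq2 called 2 (CHAC1 and NUPR1), 3 (NUPR1, DDIT3 and SLC7A1) and 7 of 39, against 8.21%, 10.5% and 15.1% of genes. Of the 39, 11 were higher in all 4 pairs of libraries (25.4% of genes) and 8 lower (21.7%), 6 of these 8 being ER genes. The median log2 difference for the mean of both drugs was 0.12 in the 27 amino acid response members and -0.29 in the 12 ER members, beside 0.04 in all genes. Leaving out parental PC9 gave 8, 10 and 12 members called, against 16.5%, 18.4% and 21.3% of genes, in a fit that takes the remaining PC9 libraries to vary like the others. In that fit the only parental library is that of HCC827. With 1 fit of all 21 libraries 6, 10 and 12 members were called, against 10.5%, 13.6% and 18.2% of genes. Without the filter on low counts NUPR1 alone was called for the mean (adjusted p = 0.0449 by edgeR), 1 of 39 against 1.44%. Other readouts differed between these libraries, not always in both lines. Mitochondrial genes took 1.97% of counts in parental HCC827 and 5.38% and 5.17% with gefitinib and osimertinib, and 3.61%, 3.69% and 3.24% in PC9. The 4 basal airway markers summed to 969, 102 and 181 CPM in PC9 and to 21.3, 1.9 and 2.03 CPM in HCC827. The 6 fibroblast markers summed to 22.6 CPM in parental and 72.3 CPM in osimertinib-tolerant PC9, with the gefitinib value between them, and to 15, 86.8 and 124 CPM in HCC827, nearly all of it COL1A1, with THY1 at 0 in the HCC827 libraries. The 6 leukocyte markers summed to 43.2, 53.5 and 35 CPM in PC9 and to 123, 41.2 and 34.7 CPM in HCC827, mostly CD68. The scrambled controls, with no drug, had 1.35% mitochondrial counts in PC9 and 2.54% in HCC827. Their basal airway markers summed to 579 CPM in PC9 and 5 CPM in HCC827. The part of these readouts and of GC content in the members' values was not tested.

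The tolerant libraries were also set beside both untreated libraries of a line, parental and scrambled. In both lines BCAT1, PPP1R15A, DNAJB9 and HERPUD1 were above both untreated libraries with either drug (4 of 39, against 15.5% of genes). MTHFD2, SLC7A1, HSPA5, SDF2L1, PDIA4 and CRELD2 were below them (6 of 39, against 13.6%). NUPR1 in HCC827 was 28.4 CPM with the scrambled control and 25 to 25.8 CPM in tolerant cells. DDIT3 in PC9 was 6.97 CPM with the scrambled control, within its tolerant values of 5.97 and 7.37. The overexpression libraries belong to another experiment, so these orders were not tested.

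Among the 4 tolerant libraries, the median ratio of the amino acid response to parental cells was highest in PC9 under gefitinib. There 21 of 27 members were above the parental library, with a median log2 ratio of 0.59, and 7 of the 27 were at least 2-fold higher, against 14.3% of genes. The scrambled PC9 library, with no drug, had a higher median over the same parental library (0.67) and 9 of the 27 at least 2-fold higher. ASNS was at 17.1 CPM in parental, 71.6 with gefitinib and 29.6 with osimertinib. ATF4 mRNA was at 138, 288 and 174 CPM and PHGDH at 240, 474 and 252 CPM in the same libraries. The importer chains SLC7A5 and SLC3A2 went the other way, at 1288, 679 and 1563 CPM and 511, 305 and 589 CPM. The median ratio of the amino acid response was 0.13 in PC9 with osimertinib, -0.15 in HCC827 with gefitinib and 0.03 in HCC827 with osimertinib. The ER median was -0.25, -0.31, -0.15 and -0.15 in these 4 pairs.

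Osimertinib-tolerant cells were compared with gefitinib-tolerant cells to ask whether the drugs leave different states. In the fit over both lines, the amino acid response members were lower with osimertinib in 23 of 27 cases (median log2 difference -0.29). The ER members were lower in 11 of 12 (median -0.10), beside a median of -0.02 in all genes. The lines differed. The amino acid response median over parental cells was 0.59 with gefitinib and 0.13 with osimertinib in PC9. In HCC827 it was -0.15 and 0.03, the other way. The test called 0 of 39 members and 0.0% of genes, with 0 members at an unadjusted p under 0.05 against 0.998% of genes, and DESeq2 also called 0, against 0.0353%. In both lines 13 members were lower, 8 of the amino acid response and 5 ER genes, against 26.1% of genes. TRIB3 was at 55.3 CPM with gefitinib and 18.2 with osimertinib in PC9, and at 61 and 68.2 CPM in HCC827, so the lines differed in sign. ATF4 had -0.42 ± 0.29 with the same sign in both lines, against an adjusted p of 1.0. Leaving out 1 library moved the amino acid response median between -0.58 and 0.08.

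The change with tolerance was compared between HCC827 and PC9, with both drugs as repeats in a line. NUPR1 was the single member that passed, 1 of 39 against 3.9% of genes. Its change was smaller in HCC827 than in PC9 by 3.43 on the log2 scale (difference -3.43 ± 0.54 SE, adjusted p = 0.0447), the parental values being 4.11 and 0.194 CPM. Each line has 1 parental library, shared by both drugs, so the SE and p do not cover the spread between parental cultures. The call was not held without any 1 of the 4 tolerant libraries (adjusted p 0.0952 to 0.14, with 0.0% of genes called), without the filter on low counts or with GC content as an offset (0 members called in each, against 0.00832% and 2.0% of genes). With 1 fit of all 21 libraries 2 members were called, NUPR1 and WARS, against 4.89% of genes, and with DESeq2 6, against 16.7%. Amino acid response members had the lower change in HCC827 for 23 of 27 genes (median -0.52), beside -0.06 in all genes, and ER members for 6 of 12 (median 0.01). PHGDH had 240, 474 and 252 CPM in PC9 but 82.6, 40.2 and 52.9 CPM in HCC827, a difference of -1.48 ± 0.58 (adjusted p = 0.19). WARS went from 1347 CPM in parental HCC827 to 402 and 525 CPM, and was 40.6, 48.6 and 34.2 CPM in PC9 (-1.62 ± 0.42, adjusted p = 0.0921). The scrambled controls, with no drug, had 572 CPM of WARS in HCC827 and 59 CPM in PC9. BCAT1 had 40.6, 173 and 154 CPM in HCC827 beside 204, 306 and 223 CPM in PC9 (1.58 ± 0.34, adjusted p = 0.0693). BCAT1 is among the lowest in GC content of the members (37.94%), and the GC trend of the HCC827 libraries is given above.

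As over all genes, where 0.0% passed, no other gene of the pathway passed in the comparisons of tolerant with parental cells. For the mean of both drugs, 0 of 13 stress sensors and eIF2 factors passed, 0 of 24 tested further ATF4 partners and response genes, 0 of 13 further cytosolic aminoacyl-tRNA synthetases and 0 of 24 further ER folding and degradation genes. KLHL24, a ubiquitin ligase adaptor, had 4.78, 37.3 and 47.8 CPM in PC9 beside 10.7, 49.7 and 51.2 CPM in HCC827 (2.63 ± 0.33, adjusted p = 0.115). CTH, the cystathionine lyase that makes cysteine, was at 4.04, 20.3 and 14.1 CPM and at 33, 84.2 and 94.9 CPM (1.71 ± 0.30, adjusted p = 0.115). The further tRNA synthetases had lower values in 10 of 13 genes (median -0.50), among them FARSA at 143, 71.1 and 58.9 CPM in PC9 and 114, 47.9 and 43 CPM in HCC827. EIF2AK3, the ER stress kinase PERK, had 0.90 ± 0.27 (adjusted p = 0.147) and ATF5, an ATF4-related factor, -1.26 ± 0.21 (adjusted p = 0.115). By cell line, DDIT4 (REDD1), an inhibitor of mTORC1, passed with -4.74 ± 0.56 (adjusted p = 0.0333), where 3.9% of genes did, at 40.8, 163 and 89 CPM in PC9 and 467, 55.3 and 56.7 CPM in HCC827. With any 1 of the 4 tolerant libraries left out no gene passed (0.0%), and scrambled PC9, with no drug, had 112 CPM of DDIT4.

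**Figure D3:**
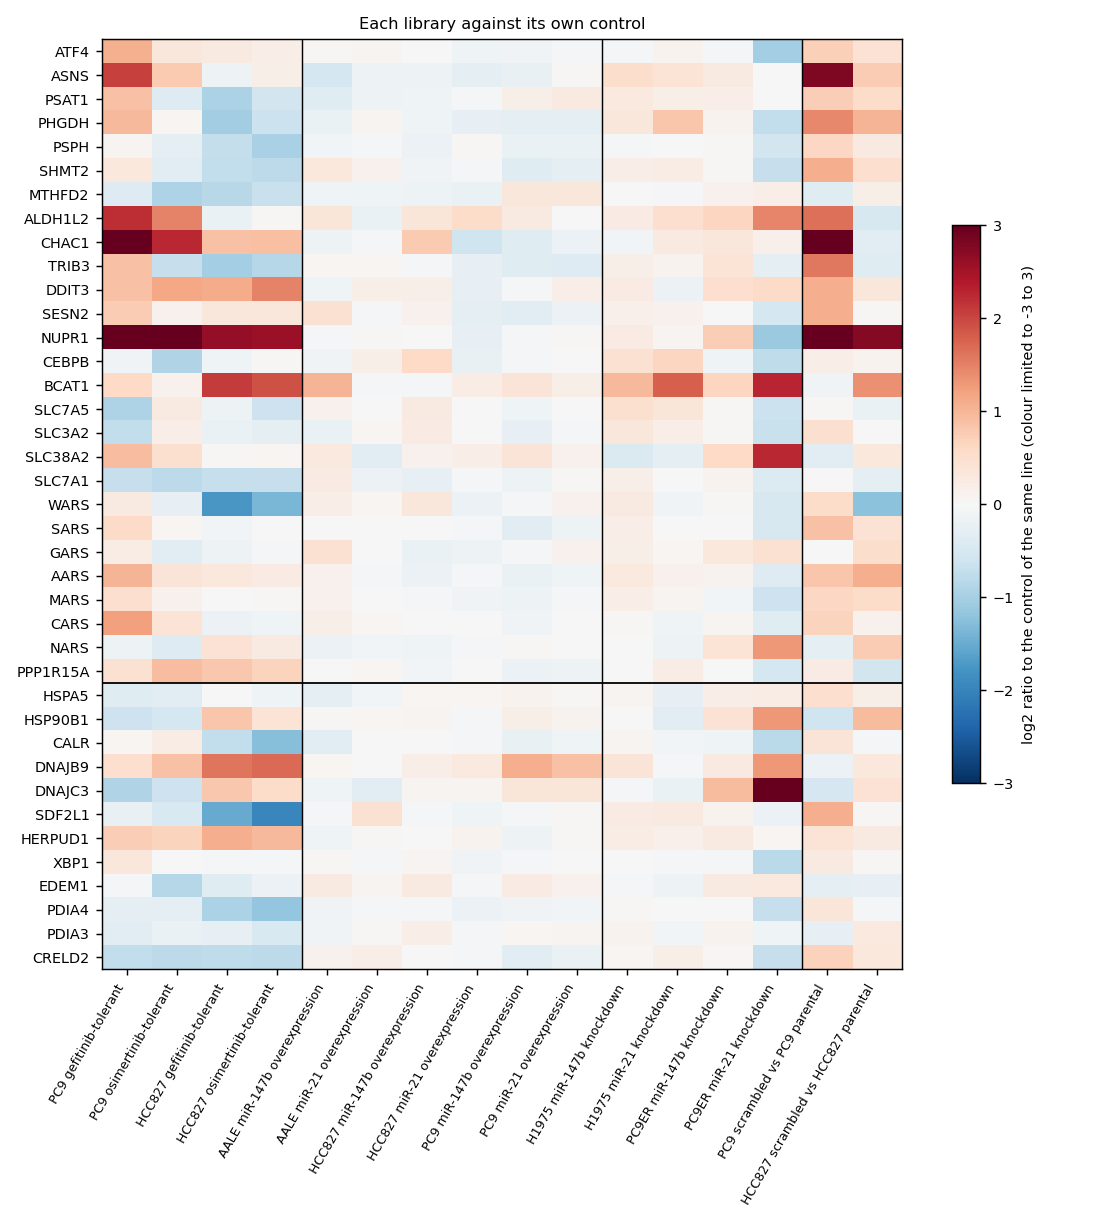
Log2 ratio of each library to the control of its own line for the 39 members (rows) in the 4 tolerant, 6 overexpression and 4 knockdown libraries and, at the right, the scrambled against the parental control of PC9 and HCC827. The overexpression columns are pale, the gefitinib-tolerant PC9 column is red for most amino acid response genes. That column and the one of scrambled against parental PC9 use the same parental library.

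Overexpression of miR-147b or miR-21 was compared with the scrambled control in 3 lines. The test called 0 of 39 members for miR-147b, against 0.00543% of 18433 genes, and 0 for miR-21, against 0.0%. At an unadjusted p under 0.05 there were 3 members for miR-147b (4.49% of genes) and 0 for miR-21 (0.928%), and DESeq2 called 0 for either, against 0.038% and 0.00543% of genes. The amino acid response medians were -0.02 for miR-147b and -0.03 for miR-21, and the ER medians 0.01 and 0.03. EDEM1, an ER degradation lectin, was at 107 and 129 CPM in AALE without and with miR-147b, 34.5 and 41.5 in HCC827 and 85.2 and 101 in PC9 (log2 difference 0.27 ± 0.09, SE, n = 3 lines, adjusted p = 0.921). ASNS was at 606 and 420 CPM in AALE, 81.6 and 73.5 in HCC827 and 118 and 102 in PC9 (-0.29 ± 0.12, adjusted p = 0.921). BCAT1 was 2-fold higher in 1 of 3 lines, at 67.1 and 135 CPM in AALE, 106 and 102 in HCC827 and 190 and 247 in PC9 (0.48 ± 0.21, adjusted p = 0.921). Without the filter on low counts BCAT1 passed at 0.47 (adjusted p = 0.0247), against 0.725% of genes. DNAJB9 in PC9 was at 8.32 CPM with the scrambled control, 18 with miR-147b and 15.4 with miR-21. Its transcript has 40.44% GC, in the lowest quintile, and that quintile had a median log2 ratio of 0.30 and 0.15 in these 2 libraries. Its part in the result was not tested.

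Knockdown of miR-147b was compared with the control knockdown in H1975 and PC9ER. Values were slightly higher for most members and none passed. The amino acid response members were higher in 23 of 27 cases (median log2 difference 0.14) and the ER members in 9 of 12 (median 0.11), beside 0.02 in all genes. In both lines 24 of 39 members were higher, against 25.2% of 17723 genes, and 1 was lower, against 20.0%. The test called 0 of 39 members and 0.0% of genes, with 0 members at an unadjusted p under 0.05 (0.824% of genes) and 0 by DESeq2 (0.147%). ASNS was at 127 and 182 CPM in H1975 and 55.9 and 68.1 CPM in PC9ER without and with knockdown (0.39 ± 0.27, SE, n = 2 lines, adjusted p = 1.0). PSAT1 was at 174 and 214 CPM in H1975 and 151 and 174 in PC9ER (0.24 ± 0.25), and TRIB3 at 86 and 97.3 and at 74.6 and 98.5 (0.29 ± 0.29). Both lines share a control with the miR-21 knockdown below, whose libraries are in the same fit and set part of its spread. The GC span with miR-147b knockdown was 0.39 in PC9ER and -0.11 in H1975, and its part in these values was not tested. Leaving out 1 library moved the amino acid response median between -0.01 and 0.30.

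Knockdown of miR-21 had 0 of 39 members called and 0.0% of genes, with or without GC content as an offset. At an unadjusted p under 0.05 there was 1 member, BCAT1, against 2.01% of genes, and DESeq2 called BCAT1 alone (2.22, adjusted p = 0.0176), against 0.209% of genes. BCAT1 was at 61.9 CPM in control and 303 CPM in knockdown PC9ER, and at 0.0923 and 0.546 CPM in H1975, where the control holds 2.35 expected counts, too few for a fold (2.26 ± 0.36 in the fit of both lines, adjusted p = 0.673). In PC9ER 4 amino acid response members (BCAT1, SLC38A2, ALDH1L2 and NARS) and 3 ER members (DNAJC3, DNAJB9 and HSP90B1) were at least 2-fold higher. SLC38A2, a glutamine importer of 38.11% GC, was at 72.4 and 347 CPM, DNAJC3, an inhibitor of PERK of 39.87% GC, at 1.82 and 17.2, and HSP90B1 (GRP94), of 41.16% GC, at 235 and 575. ATF4 (56.66% GC) was at 326 and 162 CPM, and NUPR1 (50.34%) at 5.45 and 2.47. In H1975 the same genes were at 259 and 211, 15 and 13, 505 and 405, 179 and 193, and 4.52 and 4.82 CPM, so that the lines differed in sign for each of these 5. The 4 members in the lowest quintile of GC content (BCAT1, SLC38A2, DNAJC3 and DNAJB9) were among those at least 2-fold higher in PC9ER. Those were 7 of 39 members, against 23.3% of all genes, and the genes of that quintile had a median log2 ratio of 1.53. Members just above that quintile were mixed. HSP90B1 (41.16%) and ALDH1L2 (42.11%) had log2 ratios of 1.29 and 1.46. MTHFD2 (41.4%), XBP1 (41.46%) and PSAT1 (42.28%) had 0.19, -0.82 and 0.00. The part of GC content in the members' values was not tested.

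The calls followed the PC9ER library. Without the H1975 knockdown library, which leaves PC9ER as the line that sets the difference, 15 members were called, against 30.1% of genes. Without the H1975 control 2 were called, DNAJC3 and BCAT1, against 4.49%. In H1975 alone the amino acid response median was 0.10 and the ER median -0.07.

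**Figure D4:**
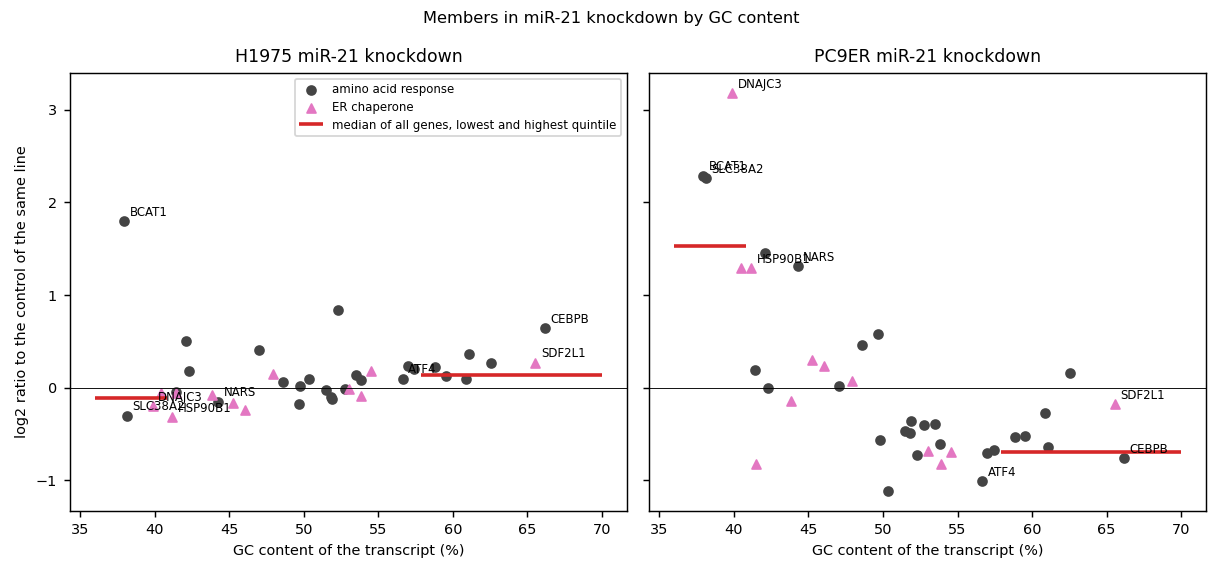
Log2 ratio of miR-21 knockdown to control against the GC content of the transcript for the 39 members in H1975 (left) and PC9ER (right), with red bars at the median of all genes in the lowest and highest quintile of GC content. In PC9ER the bars lie at 1.53 and -0.69 and the 4 members of the lowest quintile lie at 1.29 to 3.18. Just above that quintile, HSP90B1 and ALDH1L2 lie at 1.29 and 1.46, and MTHFD2, XBP1 and PSAT1 at 0.19, -0.82 and 0.00. In H1975 the bars lie at -0.11 and 0.14.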

How the data were processed

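RNA-seq of 21 libraries from 5 established human cell lines was analysed, with groups taken from the labels and 1 library per condition and line. Per the submitters' processing notes, the authors deposited expected counts per gene made with Bowtie2 and RSEM on GRCh37. Versions and annotation: not given in the sources used here. In the authors' summary of reads per library it can be seen that 85.39% to 91.17% of reads were counted. The 5 control columns held by both miRNA tables were identical, so the 3 tables were joined by gene identifier. Of 210 pairs of libraries 0 were identical.

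Expected counts (64.3% of the nonzero ones not whole) were rounded. They were scaled by TMM, filtered with filterByExpr and tested with edgeR's quasi-likelihood test (4.0.16, R 4.3.3), with Benjamini-Hochberg adjustment over all genes at 0.05. Each of the 3 experiments had a fit of its own, with the cell line as a block. The pairing by cell line comes from the labels. Libraries of a line correlated at 0.693 to 0.895 after centring each group. That centring keeps the differences between lines, so the values do not bear on a pairing of cultures. CPM uses TMM over all 21 libraries, and the ratio of a library to its control uses a prior count of 2. GC content is of the longest GENCODE 29 transcript, in quintiles of 11772 genes of at least 5 CPM. On simulated data the test recovered 71.4% of 2-fold and 96% of 4-fold changes in the gefitinib comparison. The simulation gave all genes 1 fixed spread, not taken from these data, and the same change in both lines. These shares therefore do not give the power of the test here, where 0.0% of 19837 genes passed.

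Full values were given to members with the largest changes of 1 sign in all lines and to ATF4, ASNS, DDIT3, HSPA5, XBP1 and HERPUD1, and other pathway genes were named by smallest p. The members and lists were chosen with earlier results of these data known. Alternatives were RLE scaling, library totals, no filter, DESeq2 (1.42.0), no block, 1 fit of all libraries, leaving out each library and, added after seeing the data, a GC offset.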

Additional observations from a re-analysis of the deposited data

Results flagged for a closer look

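NUPR1 passed the test of a different change with drug tolerance in the 2 lines, in a fit with 1 parental library per line that both drugs share. The change in HCC827 minus that in PC9 was -3.43 on the log2 scale (SE 0.54, adjusted p = 0.0447 by edgeR's quasi-likelihood test), with 0.194, 15 and 10.4 CPM in parental, gefitinib-tolerant and osimertinib-tolerant PC9 and 4.11, 25.8 and 25 CPM in HCC827. NUPR1 was higher in 4 of 4 tolerant libraries, and the parental PC9 value rests on 5 expected counts. In the other untreated libraries of these lines NUPR1 was at 8.18 CPM in scrambled PC9 and 28.4 CPM in scrambled HCC827. Over the alternatives with all libraries the adjusted p ran from 0.00123 to 0.0775. It ran from 0.0952 to 0.14 without any 1 of the 4 tolerant libraries, so the call was lost without each. The SE and p do not cover the spread between parental cultures. What sets parental PC9 apart was not tested.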

How the results depend on the processing

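With no replicate block 0 members were called in any of the 8 comparisons fitted so, and no call changed. The pairing is by cell line, and tolerance by cell line cannot be fitted without the line. Members called moved from 0 with 1 fit of all 21 libraries to 6 for gefitinib, 10 for osimertinib and 12 for their mean, and from 1 to 2 by cell line, against 10.5%, 13.6%, 18.2% and 4.89% of genes. With DESeq2 they moved to 2, 3, 7 and 6 in the same order (8.21%, 10.5%, 15.1% and 16.7% of genes), and to 1 for miR-21 knockdown. Without the filter on low counts they moved to 1 for the mean of both drugs and for miR-147b overexpression, and to 0 by cell line, as with the GC offset. Library totals moved the median of all genes from 0.04 to 0.21 for osimertinib, 0.04 to 0.18 for the mean, -0.02 to 0.12 for miR-21 knockdown, 0.05 to 0.15 for gefitinib and -0.06 to -0.13 by cell line. They gave ER medians of -0.12 for gefitinib, -0.13 for osimertinib, -0.15 for the mean, -0.05 by cell line and 0.14 for miR-21 knockdown, and an amino acid response median of 0.18 for osimertinib. The ER median by cell line was 0.06 in 1 fit of all libraries. For miR-21 knockdown the ER median was -0.04 with DESeq2 or RLE, -0.11 with the GC offset and 0.04 with no filter. The cause of these shifts was not tested.

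Leaving out 1 library each gave 0 to 8 members called for gefitinib, 0 to 10 for osimertinib, 0 to 12 for the mean, 0 to 0 by cell line and 0 to 15 for miR-21 knockdown. The fit by cell line cannot be made without a parental library. ER medians ran from -0.40 to -0.12 for gefitinib, -0.33 to -0.20 for the mean, -0.08 to 0.08 by cell line and -0.08 to 0 for miR-21 knockdown. Amino acid response medians ran from -0.05 to 0.78 for gefitinib, -0.21 to 0.21 for osimertinib and -0.01 to 0.30 for miR-147b knockdown. ALDH1L2 under osimertinib ran from -0.26, without parental PC9, to 1.82, without parental HCC827. Values of the members with the largest changes in a comparison were followed under settings with all libraries. Of these values 332 kept their side of the threshold, 46 passed newly and 2 no longer passed. Other members are not in this count. With 2 or 3 lines, small changes of members cannot be told from the spread between lines.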

Other observations

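ATF3, a stress-induced transcription factor next to ATF4 in this response, was chosen after its values were seen. In PC9 it had 2.1 CPM untreated, 5.03 under gefitinib and 14.4 under osimertinib. In HCC827 it had 17.8, 365 and 246 CPM, beside 4.11 and 12.3 CPM in the scrambled controls of PC9 and HCC827. All 4 tolerant libraries were above both untreated libraries of their line. The mean log2 difference over both drugs was 3.08 ± 0.73 (SE, n = 2 lines, adjusted p = 0.123 by edgeR).

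In the fit over both lines, the 13 cytosolic aminoacyl-tRNA synthetases outside the members were lower with osimertinib than with gefitinib for 13 of 13. Their median log2 difference was -0.23 and 0 passed, against 0.0% of genes. Of all 19837 genes tested 10512 were lower, at a median of -0.02. In HCC827 alone only HARS (57.4 CPM with gefitinib, 61.1 with osimertinib), DARS (79.5 and 80.4) and RARS (75.8 and 76.6) were higher. GDF15, a secreted stress cytokine, had a change in HCC827 minus that in PC9 of -3.95 ± 0.79 (log2, SE, adjusted p = 0.063 by edgeR). In parental, gefitinib-tolerant and osimertinib-tolerant cells it had 2.57, 18.7 and 7.86 CPM in PC9. In HCC827 these values were 39.4, 15.4 and 12 CPM. The scrambled controls, with no drug, had 8.81 CPM in PC9 and 15.1 CPM in HCC827.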
